A study of Mus musculus with 3 samples.

Results

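The genes described here encode the translation initiation factors (symbols starting with Eif) and elongation factors (symbols starting with Eef) of the mouse, 65 protein-coding genes of 55536 annotated genes and of 22015 nuclear protein-coding genes. They were chosen by symbol and biotype alone, and the Eif2ak kinases, 4 genes, were left out by the same rule, as were 11 genes with an Eif or Eef symbol that are not protein-coding (10 processed pseudogenes and 1 lincRNA). The samples were primary bone marrow-derived macrophages of C57BL/6J mice, treated for 30 minutes with 100 ng/ml Lipid A, the part of bacterial lipopolysaccharide that Toll-like receptor 4 recognises. RNA of the cytosolic fraction was freed of ribosomal RNA and sequenced as total RNA, from 1 µg of RNA and fragments of 250 to 400 nucleotides. The 3 libraries form 1 group and are labelled biological replicates 1, 2 and 3. All 3 name the same donor record, the labels record neither sex nor age, and no promoter, transgene or further agent is named. Nothing else says that they came from separate animals or cultures, so differences between them may be technical. Unstimulated cells and nuclear RNA were not analysed here, so no gene is called induced or retained.

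Initiation begins when eIF2 brings the initiator tRNA to the small ribosomal subunit, which eIF1, eIF1A, eIF3 and eIF5 help to find the start codon. The cap complex eIF4F, made of the cap-binding protein eIF4E, the scaffold eIF4G and the helicase eIF4A, loads that subunit onto the mRNA, and the 4E-BPs hold eIF4E back unless mTORC1 phosphorylates them. During elongation eEF1A delivers aminoacyl-tRNA, the eEF1B complex recharges eEF1A with GTP, and eEF2 moves the ribosome forward. In macrophages stimulated through Toll-like receptors these steps are known points of control, through MNK kinases that phosphorylate eIF4E and through mTORC1.

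The gene tables held 23403552, 50435201 and 35785896 estimated counts in replicates 1, 2 and 3. Nuclear protein-coding genes took 22.3%, 34.4% and 24.3% of the TPM (a level scaled by transcript length and by library). TPM is therefore compared here between genes within a library, and the libraries are compared by CPM, counts relative to the library total, scaled with edgeR's TMM factors. All 8 macrophage markers exceeded 1 TPM, led by Lyz2, and their summed level was 15913, 13778 and 14430 CPM. The 9 stromal markers summed to 279 CPM in replicate 1 against 0.506 and 1.24 CPM in replicates 2 and 3, where Col3a1, Col5a1, Lum and Pdgfra were at 0 TPM in both. The nuclear-retained RNAs Malat1 and Neat1 summed to 4520, 1436 and 7323 CPM, lowest in replicate 2.

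Translation factors were expressed at high levels compared with other genes. A mean of 1 TPM or more was reached by 61 of the 65 (93.8%), against 42.7% of nuclear protein-coding genes. Their summed level was 3463, 6083 and 3558 TPM, which is 1.55%, 1.77% and 1.46% of the nuclear protein-coding TPM. The median of log2(TPM + 1) over all 65 was 4.34 ± 0.40 (SD, n = 3), and that of the 9403 nuclear protein-coding genes at 1 TPM or more was 3.11 ± 0.30. Most of the summed level lay in few genes: Eef1a1 alone held 46.6 ± 1.68% of it and the 10 highest genes held 77.4 ± 1.16%. A mean of 100 TPM was reached by 7 genes and a mean of 10 TPM by 40.

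**Figure D1:**
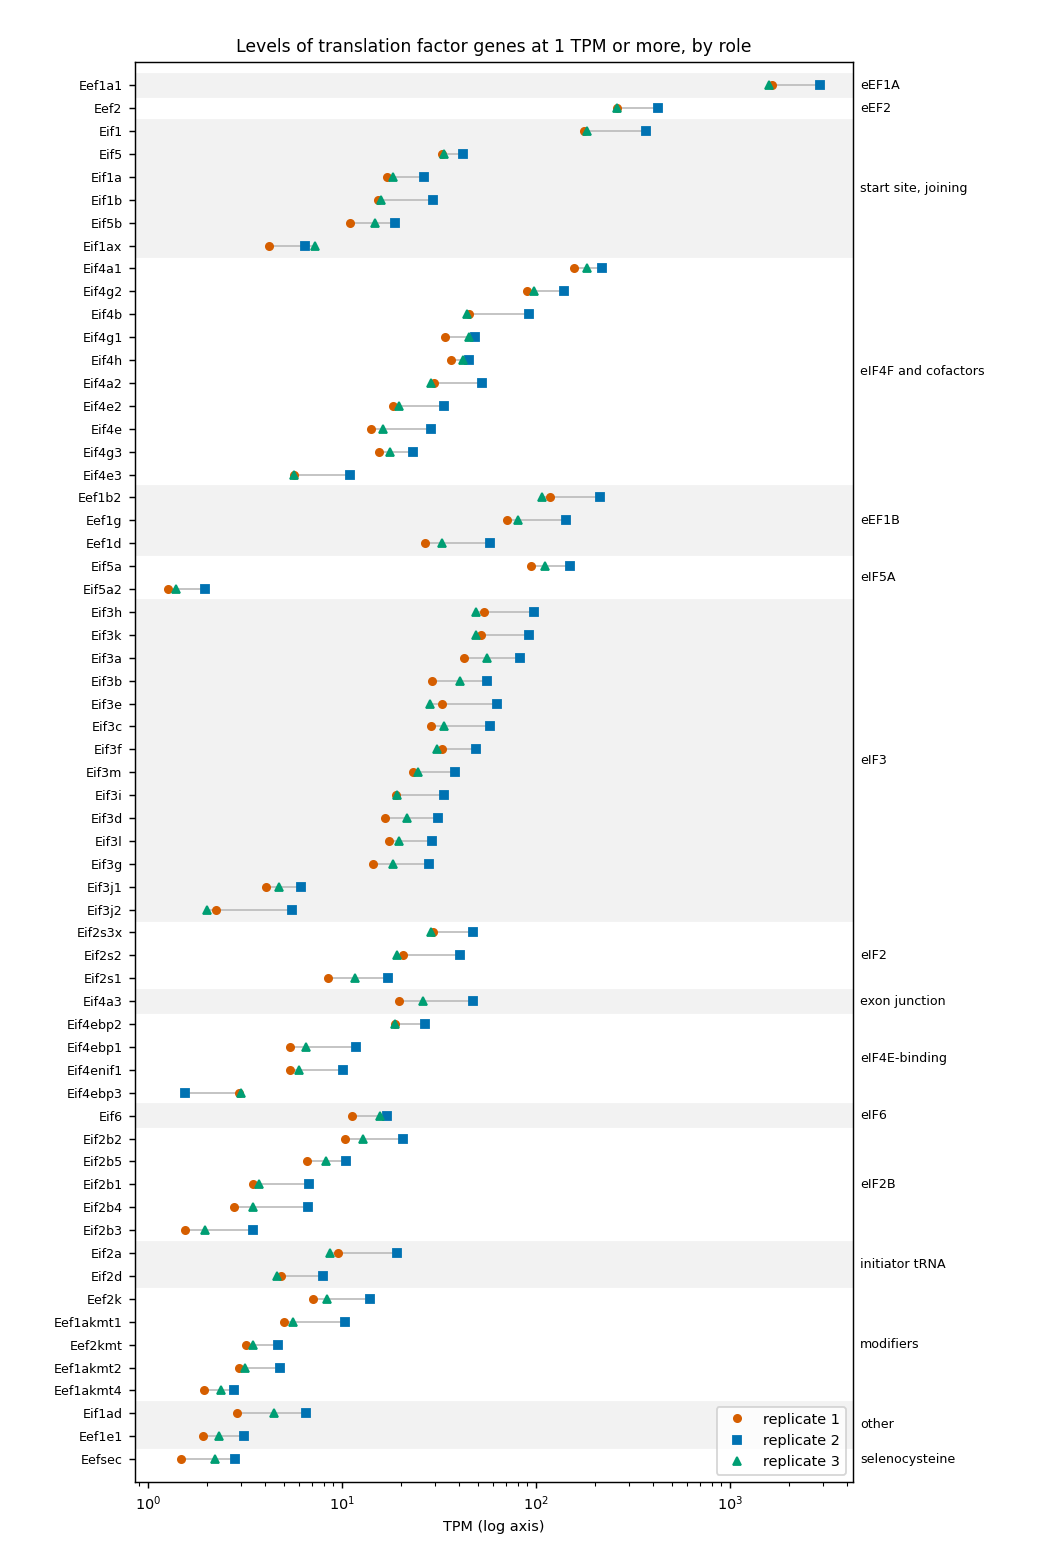
TPM on a log axis in each library (orange circles, replicate 1; blue squares, replicate 2; green triangles, replicate 3) for the 61 translation factor genes with a mean of 1 TPM or more, grouped by role. Eef1a1 lies apart at 1588 to 2905 TPM, Eef2 follows at 260.5 to 422 TPM, and Eif4ebp3 is a gene whose replicate 2 value lies below its other values.

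Elongation factors took the top of the order. Eef1a1 (chr9:78478449-78489151, mm10, minus strand), which encodes the tRNA-delivering factor eEF1A1, had 1637, 2905 and 1588 TPM in replicates 1, 2 and 3. Eef2, the translocase, had 260.5, 422 and 261 TPM. The level of Eef1a1 was thus above that of Eef2 in every library. Of the eEF1B exchange complex, Eef1b2 (the catalytic alpha subunit) had 117, 212 and 108 TPM. Eef1g, the gamma subunit, had 70.6, 142 and 80.3 TPM. Eef1d, the delta subunit, had 26.6, 57.5 and 32.5 TPM, the lowest of the complex in each library. Eef1a2, the paralog known from muscle and neurons, had 0, 3 and 1 counts. The selenocysteine factor Eefsec had a mean of 2.17 ± 0.67 TPM (SD, n = 3).

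Enzymes that modify elongation factors were low. Eef2k, the kinase that inhibits eEF2, had 7.07, 13.8 and 8.35 TPM and was the highest of the 6. The lysine methyltransferases of eEF1A ran from Eef1akmt1 at 5.03, 10.4 and 5.58 TPM down to Eef1akmt3, with 0, 1 and 1 counts. Eef2kmt, which methylates eEF2, had a mean of 3.77 ± 0.77 TPM (SD, n = 3).

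Start-site selection and subunit joining rest on 6 of the genes. Eif1, which guards the stringency of start codon choice, had 176, 367 and 183 TPM, while its paralog Eif1b had 15.2, 29.4 and 15.9 TPM. Within libraries Eif1 was 11.6, 12.5 and 11.6 times as high as Eif1b. Eif1a had 16.9, 26.4 and 18.2 TPM and its X-linked paralog Eif1ax had 4.20, 6.40 and 7.22 TPM. Eif1a was the higher of that pair in every library, and the ratio was smallest in replicate 3. In replicate 3 Eif1ax-202, a retained-intron transcript of 416 bases, held 47.8% of the TPM of Eif1ax but 3.63% of its counts. Eif5, the GTPase-activating protein of eIF2, had 32.5, 41.8 and 33.5 TPM, and Eif5b, the GTPase of subunit joining, had 10.9, 18.6 and 14.7 TPM.

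The 3 subunits of eIF2 were not at 1 level. Eif2s3x, the X-linked gamma subunit, had 29.5, 47.4 and 28.6 TPM. Eif2s2, the beta subunit, had 20.5, 40.3 and 19.2 TPM. Eif2s1, the alpha subunit and the target of the Eif2ak kinases, had 8.45, 17.2 and 11.6 TPM. The order gamma, beta, alpha held in each library, and each step was larger than the SD of its log2 difference over libraries. The Y-linked copy Eif2s3y had 6, 0 and 0 counts. A count of 0 allows up to 3 counts, which is 0.0562 TMM-scaled CPM in replicate 2 and 0.0865 in replicate 3, counting error only.

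Genes of eIF2B, the exchange factor that recharges eIF2 and is blocked by phosphorylated eIF2 alpha, had means of 2.32 to 14.6 TPM. Eif2b2 was the highest at 10.3, 20.7 and 12.8 TPM. Eif2b5, the catalytic epsilon subunit, had 6.57, 10.5 and 8.20 TPM, and Eif2b3, the gamma subunit, was the lowest at 1.54, 3.45 and 1.97 TPM. Of the 4 steps in the order Eif2b2, Eif2b5, Eif2b1, Eif2b4, Eif2b3, only that between Eif2b1 and Eif2b4 was within the spread over libraries (0.11 ± 0.12 on the log2 scale, SD, n = 3). However, Eif2b2-206, a retained-intron transcript of 338 bases, held 50.0% of the TPM of Eif2b2 but 8.68% of its counts. In TMM-scaled CPM, which is not scaled by length, Eif2b5 (25.1, 31.4 and 31.1) was above Eif2b2 (17.7, 18.8 and 15.2). Which of these 2 genes was higher therefore depends on the measure. Eif2a and Eif2d, which can deliver initiator tRNA without eIF2, had means of 12.4 ± 5.84 and 5.78 ± 1.85 TPM (SD, n = 3).

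The scaffold eIF3 is encoded by 14 of the genes, Eif3a to Eif3m with a pair of Eif3j copies. From Eif3h (53.5, 97.2 and 48.7 TPM) to Eif3g (14.5, 28.1 and 18.1 TPM), 12 subunits lay at means of 20.2 to 66.5 TPM. Eif3k had 52.0, 91.8 and 48.6 TPM and Eif3a, the largest subunit, had 42.2, 82.6 and 55.5 TPM. Of the 13 steps between neighbours in the order of levels, 7 were beyond the spread over libraries. The order among Eif3b, Eif3e, Eif3c and Eif3f was not beyond it at any step.

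Eif3j1 (chr2:122028546-122056598) and Eif3j2 (chr18:43475418-43477796) are near-identical copies of a loosely bound subunit, so their split depends on how reads that match both are shared. In the gene tables Eif3j1 had 4.04, 6.14 and 4.74 TPM and Eif3j2 had 2.23, 5.53 and 2.00 TPM, and the authors' posterior standard deviation reached 2.96% and 12.4% of the count. In the second transcript table, with both tables rescaled to nuclear protein-coding TPM, Eif3j1 was at 0.652 and Eif3j2 at 2.14 times its level in the gene tables. The order of the pair was reversed there in every library, so which copy was higher is uncertain.

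Around the cap, Eif4a1, the main helicase, had 157, 218 and 182 TPM. Eif4g2, an eIF4G relative that lacks the eIF4E-binding region, had 89.9, 139 and 96.8 TPM. The scaffold Eif4g1, at 33.9, 48.0 and 45.2 TPM, reached 0.377, 0.345 and 0.467 times the level of Eif4g2. Eif4g3 had 15.5, 23.1 and 17.6 TPM, below Eif4g1 in every library. The helicase cofactor Eif4b had 45.2, 91.9 and 44.1 TPM and the related Eif4h had 36.4, 44.9 and 41.7 TPM. Eif4b was above Eif4h in all 3 libraries, but the mean log2 difference of 0.47 was smaller than its SD of 0.49. Eif4a1 shares its symbol family with the pseudogene Eif4a-ps4, which had 1.72, 10.1 and 5.13 TPM, and its exons overlap a snoRNA gene on the same strand, as do those of Eif4g2 and Eif4a2. Reads of such overlapping genes may be shared between them.

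Of the cap-binding proteins, Eif4e and Eif4e2 were the closest in level. Eif4e had 14.1, 28.7 and 16.3 TPM and Eif4e2, a relative that represses translation, had 18.2, 33.6 and 19.6 TPM. Eif4e2 was the higher in all 3 libraries, by 0.27 ± 0.07 on the log2(TPM + 1) scale (SD, n = 3), but in the second transcript table Eif4e minus Eif4e2 was -0.08 on average and replicate 3 had Eif4e level with Eif4e2, at 4.82 TPM each. Eif4e3 had 5.66, 10.9 and 5.63 TPM and lay below Eif4e in every library, and Eif4e1b had 0 counts in all 3 libraries of the gene tables, which allows up to 0.131, 0.0562 and 0.0865 TMM-scaled CPM. The second transcript table assigned Eif4e1b 0.192, 0.184 and 0.0869 TPM, so whether it was detected depends on the estimator. Of the eIF4E-binding repressors, Eif4ebp2 was the highest at 18.7, 26.6 and 18.6 TPM. Eif4ebp1, the classical mTORC1 target, had 5.35, 11.8 and 6.51 TPM, below Eif4ebp2 in every library. Eif4ebp3 had 2.92, 1.54 and 3.02 TPM. Eif4enif1, the shuttling protein that carries eIF4E into the nucleus, had 5.36, 10.1 and 5.99 TPM.

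Of the remaining factors, Eif5a, whose hypusine residue helps ribosomes through proline-rich stretches, had 94.0, 149 and 111 TPM. Its paralog Eif5a2 had 1.26, 1.95 and 1.39 TPM, and the ratio between them was 74.6, 76.6 and 80.0. Eif6, which keeps large ribosomal subunits apart from small ones, had 11.2, 16.9 and 15.7 TPM. Eif4a3, a helicase of the exon junction complex rather than of the cap, had 19.6, 47.2 and 26.0 TPM. Eif1ad, an eIF1A-domain protein, and Eef1e1, a scaffold subunit of the multi-tRNA synthetase complex, had means of 4.59 ± 1.79 and 2.45 ± 0.61 TPM (SD, n = 3).

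**Figure D2:**
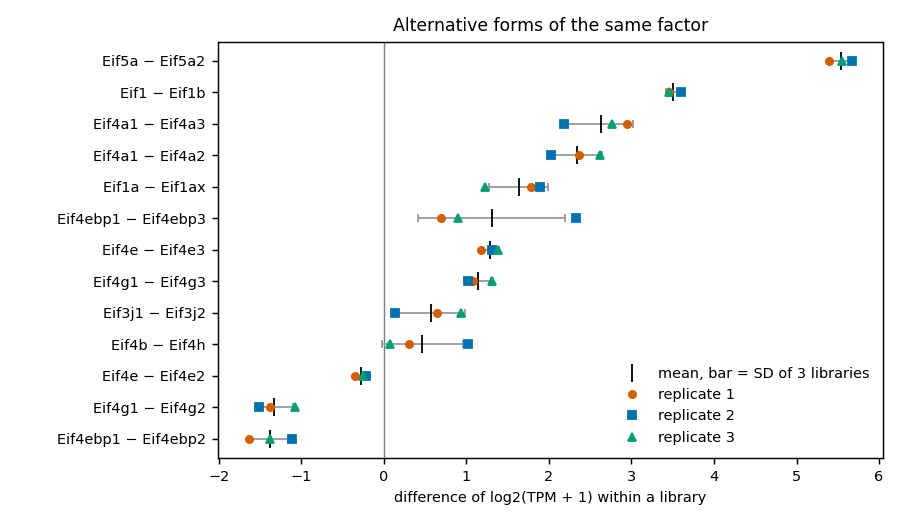
Difference of log2(TPM + 1) within each library for 13 pairs of related factors, with coloured symbols for the libraries, a tick for the mean and a bar for the SD of 3 libraries. Eif5a over Eif5a2 is the widest at 5.54, and Eif4ebp1 over Eif4ebp3 has the largest SD at 0.89.

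All 15 pairs of related factors examined had the same sign in all 3 libraries of the gene tables. With 3 libraries the smallest two-sided p of an exact permutation test that flips signs is 0.25, so no pair can pass a threshold of 0.05. The pairs Eef1a1 with Eef1a2 and Eif2s3x with Eif2s3y are given as counts only, since a partner was at or near 0.

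Eif4a2 (chr16:23107444-23114136, plus strand, mm10), the second helicase of eIF4F, had 29.6, 52.7 and 28.7 TPM, and most of it was assigned to transcripts that do not encode the full-length protein. Transcripts annotated other than protein_coding held 76.0%, 71.3% and 85.8% of its TPM, the highest share of any of the factors at 1 TPM or more. Eif4a2-210, annotated as a target of nonsense-mediated decay (the degradation of mRNAs with an early stop codon), held 44.5%, 39.9% and 43.6% of the TPM. Eif4a2-204, with the same annotation, held 21.9%, 22.9% and 29.3%. Both shares were similar in the 3 libraries.

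The structures that set these transcripts apart are shown because the shares turn on them. Eif4a2-204 includes an added exon of 107 bases (chr16:23112351-23112457), whose in-frame stop codon is in capitals below. The first line gives the last 12 bases of the exon before it and its first 18 bases, and the second gives the same junction without it, where the last exon of Eif4a2-201 begins.
Eif4a2 with the added exon: ctatattcacaggagtcgaTAGcggcagtt
Eif4a2 without the added exon: ctatattcacagaattggcagagggggtcg
Eif4a2-210 instead skips a coding exon of 140 bases (chr16:23109120-23109259), in which capitals mark the codons of the ATP-binding loop (Walker A motif) of the helicase.
Eif4a2 skipped coding exon: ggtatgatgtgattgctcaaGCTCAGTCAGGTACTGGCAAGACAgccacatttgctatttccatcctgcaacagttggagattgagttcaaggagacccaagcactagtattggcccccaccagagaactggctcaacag
The next coding exon is then read in another frame up to a stop codon (capitals) after 83 bases (chr16:23109985-23110067).
Eif4a2 exon after the skip: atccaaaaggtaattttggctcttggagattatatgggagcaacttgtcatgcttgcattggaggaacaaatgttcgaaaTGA

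Read from the annotated start, Eif4a2-201 has 407 codons before its stop, Eif4a2-204 has 362 and Eif4a2-210 has 97. The added exon is also part of Eif4a2-202 and Eif4a2-224, which are annotated protein_coding. All 3 transcripts with it together held 37.8%, 39.7% and 37.3% of the TPM in the first transcript table and 37.6%, 40.1% and 37.9% in the second. Transcripts that span the skipped exon without it held 47.7 ± 1.94% in the first table and 39.5 ± 1.12% in the second (SD, n = 3). The 3 transcripts that end at the last-exon stop of Eif4a2-201 were listed at 0% in the first table in every library and held 1.12%, 3.60% and 9.83% in the second. These shares are estimates from reads that many of the gene's transcripts share, not counts of reads across each junction.

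**Figure D3:**
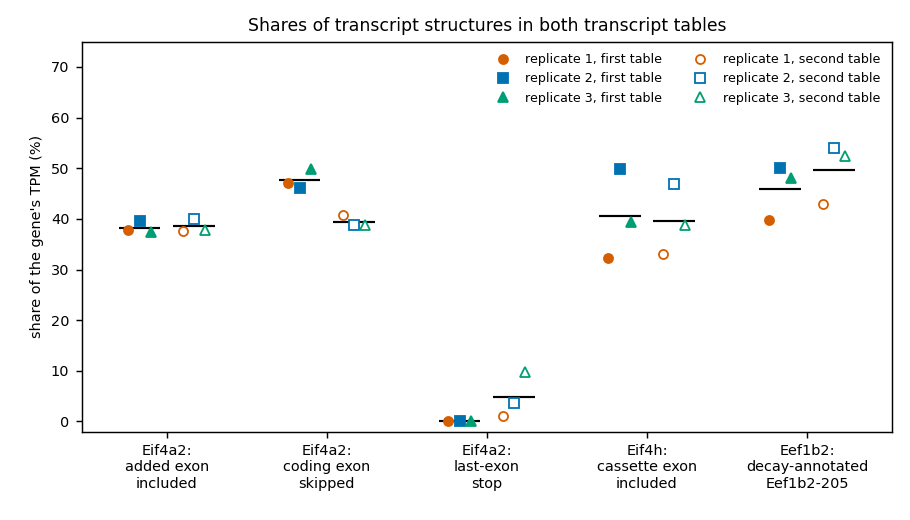
Share of a gene's TPM held by a transcript structure, in percent, in the first (filled symbols) and second (open symbols) transcript table, with a line at the mean of 3 libraries. The added exon of Eif4a2 lies between 37.3% and 40.1% in all 6 estimates and the last-exon stop of Eif4a2 between 0% and 9.83%. The cassette exon of Eif4h, taken as the share of Eif4h-205, is highest in replicate 2 in both tables.

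Eif4h showed an alternative exon that keeps the reading frame. Eif4h-205 includes a coding exon of 60 bases (chr5:134624441-134624500, minus strand) that Eif4h-201 lacks, which gives 248 codons against 228.
Eif4h cassette exon: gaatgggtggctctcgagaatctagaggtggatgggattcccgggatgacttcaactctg
Eif4h-205 held 32.3%, 49.9% and 39.4% of the TPM in the first table and 33.1%, 46.9% and 38.8% in the second. Replicate 2 had the highest share and replicate 1 the lowest in both tables. Eif4h-205 has 2726 bases and Eif4h-201 has 2367, so they differ by more than the cassette exon. The share of Eif4h-205 is an estimate for that whole transcript and not a count of reads across the exon's junctions. For Eef1b2, the decay-annotated transcript Eef1b2-205, which has 68 codons before its stop, held 39.8%, 50.0% and 48.1% of the TPM.

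Transcripts not annotated protein_coding held 20% or more of the TPM of 10 of the 61 factors at 1 TPM or more, while the median share over the 61 was 1.15%. The 10 were Eif4a2 (77.7%), Eif2b2 (52.9%), Eef1b2 (49.4%), Eif4a3 (46.1%), Eif1 (45.0%), Eef1akmt2 (39.5%), Eif4ebp1 (35.4%), Eif2a (30.7%), Eef2k (30.7%) and Eif1ax (26.3%), as means of 3 libraries. TPM favours short transcripts, and as shares of expected counts only Eif4a2 (80.9%), Eef1b2 (37.8%), Eef1akmt2 (25.4%) and Eif2a (24.8%) reached 20%. Eif1-202, for example, is a processed transcript of 383 bases beside the 1322 bases of Eif1-201, and held 44.7% of the TPM but 10.7% of the counts. Eif2b2-206, a retained-intron transcript of 338 bases, took 50.0% of the TPM but only 8.68% of counts. Among these 10, Eif1ax had the widest spread, with 16.2%, 14.8% and 47.8% in the 3 libraries. Exons of Eif2a overlap Serp1 on the opposite strand, and the sources used here do not say whether strand was used in counting. Eif5b stood out between tables: transcripts not annotated protein_coding held 54.1 ± 2.53% of its TPM in the second table (SD, n = 3), while Eif5b-201, which is protein_coding, held 95.5% in the first.

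**Figure D4:**
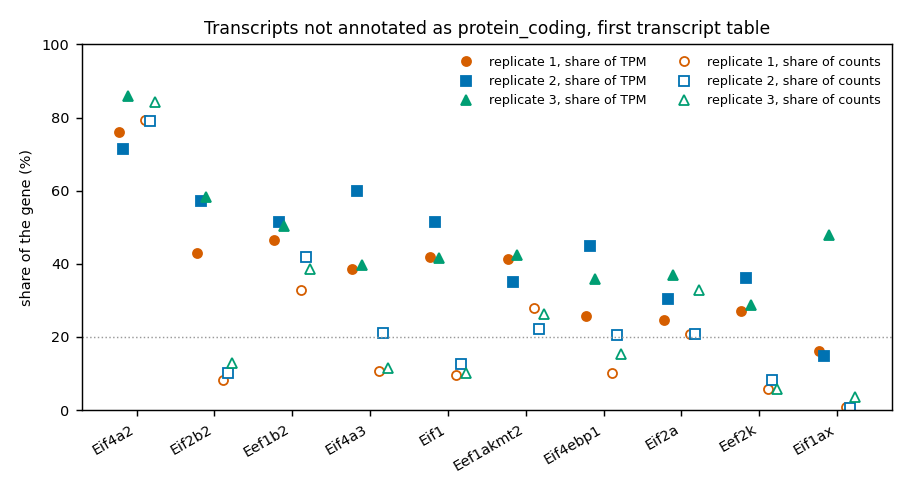
Share of a gene held by transcripts not annotated protein_coding in the first transcript table, in percent, for the 10 factors at 20% or more of TPM (dotted line), as a share of TPM (filled) and of expected counts (open) in each library. The share of counts stays near that of TPM for Eif4a2 (80.9% against 77.7%) and lies far below it for Eif2b2, Eif4a3, Eif1 and Eif1ax.

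Most factors differed between the 3 libraries by more than counting error, and replicate 2 was the high one. The counts of 13237 genes, those averaging at least 10, were compared with Poisson sampling by a chi-square test, and p-values were adjusted after Benjamini and Hochberg with a threshold of 0.05. Of the 61 factors tested 53 passed (86.9%), and of all genes 67.9%. The test gains power with depth and the factors are highly expressed. By size, the libraries were at least 1.5-fold apart for 7 factors (11.5%) against 20.9% of all genes, and at least 2-fold apart for 2 (3.28%) against 11.1%. The comparison at 1.5-fold depended on the count minimum and on the scaling. With a mean count of 100 or more, the shares were 10% of the factors and 13.8% of all genes. With library totals and no TMM factor they were 22.95% and 24.3%. The median biological coefficient of variation was 14.2% for the factors and 17.5% for all genes tested. The factors that did not pass were Eif1a, Eif1ax, Eif3j1, Eif2b4, Eef2kmt, Eef1akmt2, Eef1akmt4 and Eif5a2.

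Replicate 2 had the highest TMM-scaled CPM for 50 of the 61 factors, against 44.3% of all genes. Replicate 1 had it for 4 (26.2% of all genes) and replicate 3 for 7 (29.5% of all genes). The lowest value was in replicate 1 for 29 factors (34.6% of all genes), in replicate 2 for 5 (32.9%) and in replicate 3 for 27 (32.5%). Replicate 2 exceeded replicate 1 by a median of 0.27 on the log2 scale and replicate 3 by 0.23, where the medians of all genes tested were 0.05 and 0.04. With library totals and no TMM factor these medians were 0.39 and 0.36 for the factors and 0.17 and 0.17 for all genes. Leaving out the TMM factor moves every gene by the same amount, so it could not change the gap between factors and all genes. Without replicate 2, the factors split into 28 highest in replicate 1 and 33 highest in replicate 3. With all 3 libraries scaled together, 54.1% of the factors and 51.7% of all genes were higher in replicate 3 than in replicate 1. Without replicate 2 the test was passed by 30 factors (49.2%, against 33.4% of all genes). None of the factors was 1.5-fold apart, against 7.13% of all genes. Without replicate 3, 3 factors were 1.5-fold apart (4.92%, against 14.3% of all genes) and 53 were higher in replicate 2 than in replicate 1. With all 3 libraries scaled together, 86.9% of the factors and 56.0% of all genes were higher in replicate 2 than in replicate 1. Replicate 2 also had the lowest summed Malat1 and Neat1 and the largest protein-coding share of TPM (values above), and their part in these differences was not tested. In bulk RNA, fewer cells of a type and less RNA per cell cannot be told apart.

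**Figure D5:**
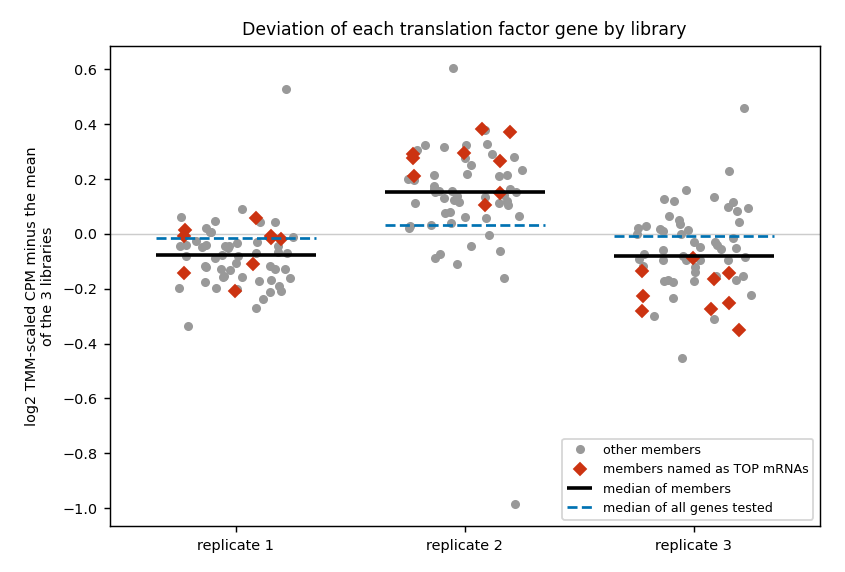
Log2 TMM-scaled CPM of each of the 61 tested factors minus its mean over the 3 libraries, by library, with the median of the factors (black line) and of all genes tested (dashed blue line). The factors' medians are -0.08, 0.15 and -0.08. All 9 factors named as TOP mRNAs (red diamonds, a list chosen after the values were seen) are above 0 in replicate 2. Of all 61 factors, 50 are highest in replicate 2, as are 44.3% of all genes tested. The lowest point in replicate 2 is Eif4ebp3.

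The factors with the widest range differed in role. Eif4b had 331, 465 and 295 CPM, a 1.58-fold range. Eif3e, a core eIF3 subunit, had 85.4, 112 and 67.8 CPM (1.65-fold). Eif2s2 had 95.3, 130 and 80.6 CPM (1.61-fold). In these genes replicate 2 was the highest and replicate 3 the lowest. Eif2a had 38.0, 48.4 and 31.4 CPM (1.54-fold), in the same order. Eif1ad had 13.5, 21.1 and 17.4 CPM (1.56-fold), lowest in replicate 1. Eif3j2 had 9.81, 16.7 and 7.99 CPM (2.09-fold), but 1.499-fold in the second transcript table, where it was the 1 of the 7 that did not reach 1.5-fold. Eif4ebp3 had 3.11, 1.09 and 2.97 CPM (2.86-fold) and was the 1 of the 7 with its lowest value in replicate 2. Its posterior standard deviation was up to 23.9% of the count, and its range was 4.60-fold in the second transcript table. Exons of Eif4ebp3 overlap AC115631.1, a protein-coding gene on the same strand with a mean of 5.42 TPM against 2.49 TPM for Eif4ebp3. The part of reads shared between these genes in its range was not tested. Just under 1.5-fold lay Eif3h with 116, 143 and 96.1 CPM, Eif4e3 with 26.5, 35.0 and 23.9 CPM, Eif2b3 with 4.38, 6.35 and 4.99 CPM and Eef1akmt1 with 6.48, 9.35 and 6.87 CPM, each highest in replicate 2.

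Few factors ran the other way. Eif4a1 had 485, 459 and 505 CPM, lowest in replicate 2. Eif4g1 had 303, 291 and 350.4 CPM, also lowest in replicate 2 and highest in replicate 3. Eif4h had 165, 143 and 173 CPM in the same order. Eif4a1, Eif4g1 and Eif4h thus differed in order from Eif4b, although all passed the test. Unlike Eif4b, each of them was less than 1.5-fold apart. They were a minority of their group: of the 10 tested genes of eIF4F, its relatives and its helicase cofactors, 7 were highest in replicate 2 and 3 in replicate 3.

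TOP mRNAs begin with a C followed by a run of C and T bases, and their translation is known to depend on mTORC1. They include ribosomal protein mRNAs and those of several factors. A list of 9 factors known as TOP mRNAs (Eef1a1, Eef1b2, Eef1d, Eef1g, Eef2, Eif3e, Eif3f, Eif3h and Eif4b) was chosen after their values were seen and is described without a test. All 9 were highest in replicate 2, as were 50 of all 61 factors tested and 44.3% of all genes. Of the 9, 7 were lowest in replicate 3, as were 27 of the 61 and 32.5% of all genes. Their median log2 difference was 0.30 between replicates 2 and 1 and 0.44 between replicates 2 and 3, and for the 52 other factors tested it was 0.25 and 0.18. For the 83 cytosolic ribosomal protein genes tested it was 0.27 and 0.52. Eef1a1 had 5182, 6296 and 4389 CPM and Eef2 had 1510, 1684 and 1374 CPM.

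Windows around the RefSeq start (GRCm38.p6, the last 15 bases before it and the first 25 from it, on the transcript strand) are shown for the 5 listed factors that the promoter table holds and for Eif4a1 and Eif4g1, which ran the other way. Capitals mark runs of at least 7 bases that start with C and hold only C and T.
Eef1a1 (chr9:78481700-78481739, minus): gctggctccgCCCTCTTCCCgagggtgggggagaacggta
Eef1b2 (chr1:63176816-63176855, plus): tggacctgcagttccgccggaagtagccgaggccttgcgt
Eef2 (chr10:81176616-81176655, plus): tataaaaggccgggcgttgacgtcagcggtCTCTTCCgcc
Eif3f (chr7:108934400-108934439, plus): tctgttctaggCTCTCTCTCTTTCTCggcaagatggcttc
Eif4b (chr15:102073758-102073797, plus): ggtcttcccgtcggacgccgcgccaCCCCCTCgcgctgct
Eif4a1 (chr11:69672399-69672438, minus): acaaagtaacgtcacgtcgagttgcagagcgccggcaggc
Eif4g1 (chr16:20672712-20672751, plus): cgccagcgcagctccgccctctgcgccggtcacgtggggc
Such a run was in the window of 4 of these 5 listed factors and in neither of the other pair. Both groups were chosen with their values seen, and Eif4h, which also ran the other way, is not shown. Whether such runs go with the order of the libraries was therefore not tested. It was found for 15 of the 49 factors in the table (30.6%), for 20.6% of all RefSeq genes and for 51.5% of the cytosolic ribosomal protein genes. On the opposite strand it was found for 9 of the 49 factors and for 24.0% of all genes. The RefSeq start of Eif4a1 lies 106 bases and that of Eef1b2 314 bases from the start of its main transcript in these libraries, so those windows may miss the start in use. Of the runs shown, those of Eef1a1 and Eif3f span the RefSeq start, and those of Eef2 and Eif4b begin downstream of it. A run describes the letters of the window and is not a test of how the mRNA begins.

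Other genes of the pathway are given beside the same shares of all genes: 67.9% passed the chi-square test, 20.9% were 1.5-fold apart, 44.3% were highest in replicate 2 and 29.5% in replicate 3. No difference between a list and all genes was tested. Of 13 genes of mTORC1 and MNK signalling to translation, 11 passed the chi-square test and none was 1.5-fold apart. Mknk2 and Mknk1, the kinases of eIF4E, were the highest of them at 37.9, 59.4 and 40.3 TPM and 26.7, 50.7 and 30.8 TPM, and Mtor had 3.50, 4.54 and 4.59 TPM. Of the 7 genes of eIF2 kinases and phosphatase subunits, all passed and 1 was 1.5-fold apart: Ppp1r15a, the inducible subunit that directs eIF2 alpha dephosphorylation, had 380, 668 and 197 TPM. It was above every initiation factor gene in replicates 1, 2 and 3, and Eif2ak2, the double-stranded RNA kinase, was the highest kinase at 14.8, 25.3 and 13.8 TPM. Of the 5 poly(A)-binding proteins and partners, 4 passed and all 5 were highest in replicate 2, among them Pabpc1 at 192, 375 and 192 TPM. Of the 8 genes that make hypusine on eIF5A or diphthamide on eEF2, 5 passed and 4 were highest in replicate 3. Of the 6 genes of termination and recycling 5 passed, of the 6 mitochondrial translation factors all passed, and none in either list was 1.5-fold apart.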

How the data were processed

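Each library had a gene table and 2 transcript tables. The deposited readme files name the mm10 assembly and the GENCODE M21 annotation, and neither aligner, estimators nor strand setting is given in the sources used here. The gene table and the first transcript table, as deposited, hold expected counts, TPM and, for transcripts, the percent of the gene's TPM, with reads that match several places shared out by the authors' estimator. The gene table also holds a posterior standard deviation of the count, deposited by the authors. The second transcript table, as deposited, holds estimated counts and TPM from another estimator. Its TPM total over short RNAs differs from the first, so levels were compared between tables after both were rescaled to nuclear protein-coding genes.

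Of 81881 rows, 26345 for tRNAs, spike-ins and phiX were left out. Expected counts were rounded. TMM factors and the coefficient of variation came from edgeR 4.0.16, alternative size factors from DESeq2 1.42.0, and tests from scipy 1.17.1. The chi-square procedure was run on simulated Poisson counts with a set of genes changed in 1 library. The unchanged genes varied there by sampling only, so this run does not show how the test behaves on these libraries. Log2 levels used a pseudocount of 1, and log2 CPM a prior count of 0.5. Precision is limited by 3 libraries. Values by library were given for the 10 highest factors, the paralog pairs, the 10 with the widest range at a mean count of 100 or more, those under 1 TPM, those whose transcript tables differed by over 1.5-fold (after the rescaling) and those with 20% or more of TPM not annotated protein_coding; other genes came from fixed lists. The rule for the factors uses only symbol and biotype, but the rule and the lists were set with earlier results of these data known. Exons were read from GENCODE M21 transcripts with Biopython 1.88 and promoter windows from RefSeq (GRCm38.p6), which held 49 of the 65 genes. Protein sequences were not used here.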

Additional observations from a re-analysis of the deposited data

How the results depend on the processing

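No paired analysis was possible because the 3 libraries form 1 group. The count of 53 factors past the chi-square test stayed within 1.5 times under DESeq2 size factors, library totals, the second transcript table and both count minimums, and ran from 30 to 49 when 1 replicate was left out, lowest without replicate 2. As shares, 84.4% to 98.4% of the factors and 46.0% to 76.0% of all genes passed with every replicate kept. With 1 replicate left out, 49.2% to 80.3% of the factors and 33.4% to 56.7% of all genes passed. The 7 factors 1.5-fold apart became 14 with library totals, 14 in the second transcript table and 2 at a 2-fold range, and ran from 0 to 6 with 1 replicate left out. As shares, 22.95% of the factors and 24.3% of all genes were 1.5-fold apart with library totals. In the second transcript table these shares were 22.6% and 29.9%. The gap of 11.5% against 20.9% under TMM scaling was therefore nearly absent with library totals. With library totals 2 factors were highest in replicate 1. With 1 replicate left out, the factors highest in replicate 1 ran from 8 to 28 and those in replicate 3 from 8 to 33. Those in replicate 2 were 53 either way. Each library is then compared with 1 other. With all 3 libraries scaled together, 56.0% of all genes were higher in replicate 2 than in replicate 1. Replicate 2 was above replicate 3 for 54.8% of all genes and replicate 3 above replicate 1 for 51.7%. The median level of 4.34 became 3.17 in the second transcript table and 6.20 with TPM rescaled to nuclear protein-coding genes. The difference between Eif3j1 and Eif3j2 reversed to -0.66 in the second transcript table. The other 14 pairs kept the sign of their mean under every alternative run, and Eif4e minus Eif4e2 shrank to -0.08 in the second transcript table, where its sign differed in replicate 3. The 10 factors with 20% or more of TPM not annotated protein_coding became 14 in the second transcript table and 10 to 12 with 1 replicate left out. They became 6 with nonsense_mediated_decay counted as coding and, in an alternative chosen after seeing the data, 4 by expected counts. The causes were not tested beyond these constructions. Replicate 1 had the fewest counts, which limits the low factors most.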
